A study of Homo sapiens with 6 samples.

Results

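The E2F and pocket protein genes studied here are E2F1 to E2F8 with RBL1 and RBL2, the genes of the pocket proteins p107 and p130. They were chosen by name: a member is represented by a probe set whose platform annotation names that gene alone. All 10 had such a probe set, 1 each, among the 18404 genes measured. RNA came from H226, a human lung squamous carcinoma line, carrying an shRNA against p63 that doxycycline switches on. Each of 3 groups had 2 Affymetrix HuGene 1.0 ST arrays, which measure transcripts with many short probes along the gene. The Nutlin-3 cells had the shRNA off and were exposed for 12 h to 10 µM Nutlin-3, a small molecule that blocks MDM2 and so activates p53. In the shp63 ON group, 1 µg/mL doxycycline was present for 48 h by the treatment protocol, although the treatment tag reads untreated. Control cells had the shRNA off, under normal growth. All cells were plated 24 h before treatment in RPMI with 10% fetal calf serum. The labels do not say whether the line is a clone or whether replicates came from separate cultures, so p-values may measure only technical spread.

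E2F proteins bind DNA, mostly as dimers with a DP partner, and control the genes of S-phase entry. E2F1, E2F2 and E2F3 are activators that pocket proteins silence until cyclin-dependent kinases phosphorylate the pocket protein. E2F4 and E2F5 mostly repress, bound to p107 or p130, and E2F4 with these pocket proteins and the MuvB core forms the DREAM complex of resting cells. E2F6 represses without a pocket protein, through polycomb complexes, and the atypical E2F7 and E2F8 repress without a DP partner or a pocket protein. E2F1 and other members of this family are themselves targets of E2F proteins in cycling cells, and E2F7 is a known p53 target.

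Values were log2 intensities, with array medians of 6.57 to 6.70. Replicate arrays correlated across genes at 0.997 to 0.998, and arrays of different groups at 0.975 to 0.989. KRT5, a basal squamous keratin, averaged 12.18 over the 6 arrays, while the squamous transcription factor gene SOX2 averaged 5.75. Of the markers measured, 7 of 9 squamous, 3 of 8 mesothelial, 3 of 10 leukocyte and 2 of 10 stromal fibroblast ones averaged above the median of all genes. The mesothelial marker MSLN averaged 9.90. Among leukocyte markers PTPRC, common to leukocytes, averaged 4.32 and CD68, a macrophage marker, 9.63. CD68 (log2 fold change 0.75), CD14 (0.62) and TYROBP (0.54) were higher in shp63 ON than in control, and the other 7 of 10 did not pass. Of all genes, 19.7% were called higher there. With Nutlin-3, 2 of the 10 were higher than control, LAPTM5 most (0.89), against 9.64% of all genes. LAPTM5 was lower in shp63 ON than with Nutlin-3 (−0.99), while 5 of the 10 were higher. Of all genes, 27.5% were called higher and 24% lower in that comparison. The part of other cell types in the results was not tested. Of 9 measured squamous markers (of 12 listed), 4 were higher with Nutlin-3 (9.64% of all genes), and 4 lower and 1 higher in shp63 ON (16.5% and 19.7%). Their median log2 fold changes were 0.15 and −0.17. DSG3 (2.03) and S100A2 (1.33) rose most with Nutlin-3, and S100A2 fell most in shp63 ON (−2.13). The mean of these 9 markers, which such genes move most, was 9.94 to 10.00 in Nutlin-3 cells, 9.05 to 9.10 in shp63 ON cells and 9.47 to 9.51 in control cells. The corresponding ranges were 7.71 to 7.74, 7.71 to 7.81 and 7.59 to 7.65 for 8 of 10 mesothelial markers, 6.19 to 6.25, 6.41 to 6.42 and 6.15 to 6.20 for 10 leukocyte markers, and 5.89 to 5.91, 6.0 to 6.02 and 5.93 to 5.95 for 10 stromal fibroblast markers. The Ki-67 gene MKI67, a proliferation marker, read 8.70 and 8.58 with Nutlin-3, 7.46 and 7.31 in shp63 ON, and 9.52 and 9.70 in control. It fell in both comparisons with control (log2 fold change −0.97 and −2.23, SE 0.09 each). In bulk RNA, fewer cycling cells and less RNA per cell cannot be told apart, and the part of either in the results below was not tested. The targeted gene itself was not analysed here.

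The members differ in the sequence just before their transcription start. The sequences printed are of members picked by their changes. E2F1 and RBL1 fell under both conditions, and E2F7 and RBL2 rose with Nutlin-3 and fell in shp63 ON. RefSeq promoters (GRCh38.p14) matched 8 of the 10 members, not E2F5 and E2F8, and the 250 bases before the first listed start were searched on both strands. The E2F site was any of TTTCCCGC, TTTCGCGC, TTTGCCGC and TTTGGCGC. It occurred in E2F1, E2F2, E2F3 and RBL1, that is in 4 of 8 members, against 3.8% of 14230 gene promoters of the same length. E2F1 held TTTGCCGC on the opposite strand, 33 to 26 bases before the start, and TTTGGCGC 20 to 13 bases before it. RBL1 held TTTCGCGC at 26 to 19 and TTTGGCGC at 16 to 9 bases before the start. E2F7 and RBL2 had no match to these letters in this window. In shp63 ON both were nonetheless lower than control (log2 fold change −1.61 and −0.28), E2F7 the lowest of all members. E2F2 and E2F3, not printed, held 1 E2F site each. Yet E2F3 did not pass with Nutlin-3 (log2 fold change 0.18), and E2F2 did not in shp63 ON (−0.13). E2F4 and E2F6 held no site and passed against control only in shp63 ON, as lower. Any link between these sites and the changes was not tested. The cell cycle element CHR (TTTGAA) occurred in E2F3 alone of the members, against 10.6% of promoters. The CCAAT box, which NF-Y binds, occurred in 3 of 8 members, against 34.4% of promoters, with 4 copies in E2F3, 4 in E2F7 and 3 in E2F1. RBL2 held 1 copy before its second listed start, not before the first. E2F3 also has a second listed start, which had no E2F site, CHR or CCAAT box before it. None of these matches overlapped another. Capitals mark the E2F sites, and each sequence runs 5′ to 3′ towards the start.
E2F1, chr20:33686386-33686635, minus strand: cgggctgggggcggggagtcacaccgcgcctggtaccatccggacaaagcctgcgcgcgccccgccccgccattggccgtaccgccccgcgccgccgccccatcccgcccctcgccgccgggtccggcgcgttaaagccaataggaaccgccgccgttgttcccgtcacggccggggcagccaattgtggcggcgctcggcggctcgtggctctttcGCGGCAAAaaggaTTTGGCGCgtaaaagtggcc
RBL1, chr20:37095998-37096247, minus strand: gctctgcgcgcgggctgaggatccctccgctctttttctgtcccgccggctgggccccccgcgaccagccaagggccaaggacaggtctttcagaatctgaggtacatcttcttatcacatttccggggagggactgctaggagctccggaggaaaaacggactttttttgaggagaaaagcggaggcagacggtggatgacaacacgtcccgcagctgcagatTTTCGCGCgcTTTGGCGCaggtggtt
E2F7, chr12:77065570-77065819, minus strand: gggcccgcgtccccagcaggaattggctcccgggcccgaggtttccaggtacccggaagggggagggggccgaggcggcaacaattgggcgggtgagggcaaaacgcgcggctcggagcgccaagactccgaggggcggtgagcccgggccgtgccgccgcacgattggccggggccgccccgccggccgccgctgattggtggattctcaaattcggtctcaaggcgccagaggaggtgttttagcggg
RBL2, chr16:53434221-53434470, plus strand: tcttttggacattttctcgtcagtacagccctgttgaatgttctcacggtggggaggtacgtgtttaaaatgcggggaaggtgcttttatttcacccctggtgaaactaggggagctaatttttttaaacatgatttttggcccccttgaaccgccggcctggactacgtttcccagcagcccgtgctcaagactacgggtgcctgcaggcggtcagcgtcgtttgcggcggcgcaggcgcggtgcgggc

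E2F1, E2F2, E2F8 and RBL1 were lower and E2F7 and RBL2 higher with Nutlin-3 than in control, while E2F3 to E2F6 did not pass. By limma across all genes (Benjamini-Hochberg adjusted p under 0.05, the threshold used throughout), 2 of 10 members were higher and 4 lower, against 18.5% of all genes called in either direction (9.64% higher and 8.89% lower). The median log2 fold change was −0.02 over the members and −0.002 over all genes. With shp63 ON, 9 of 10 members were lower than control, against 16.5% of all genes called lower, 19.7% called higher and 36.2% called in all, and the member median was −0.40 with 0.04 over all genes. The member that did not pass was E2F2. Both comparisons use the same control arrays. Set directly against Nutlin-3, shp63 ON had 3 members higher and 6 lower, against 51.5% of all genes called, 27.5% higher and 24% lower. The groups did not overlap for 9 of 10 members in each comparison with control, but 60.5% of all genes did not overlap with Nutlin-3 and 71.7% did not with shp63 ON. Between shp63 ON and Nutlin-3 no member overlapped, and 76.7% of all genes did not. The count of 9 in shp63 ON fell when any 1 of the 4 arrays compared was left out, and so did the number of all genes called. It was 6 in the one-way analysis of variance, which kept all arrays and called 3003 of all genes, against 6670 in limma.

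**Figure D1:**
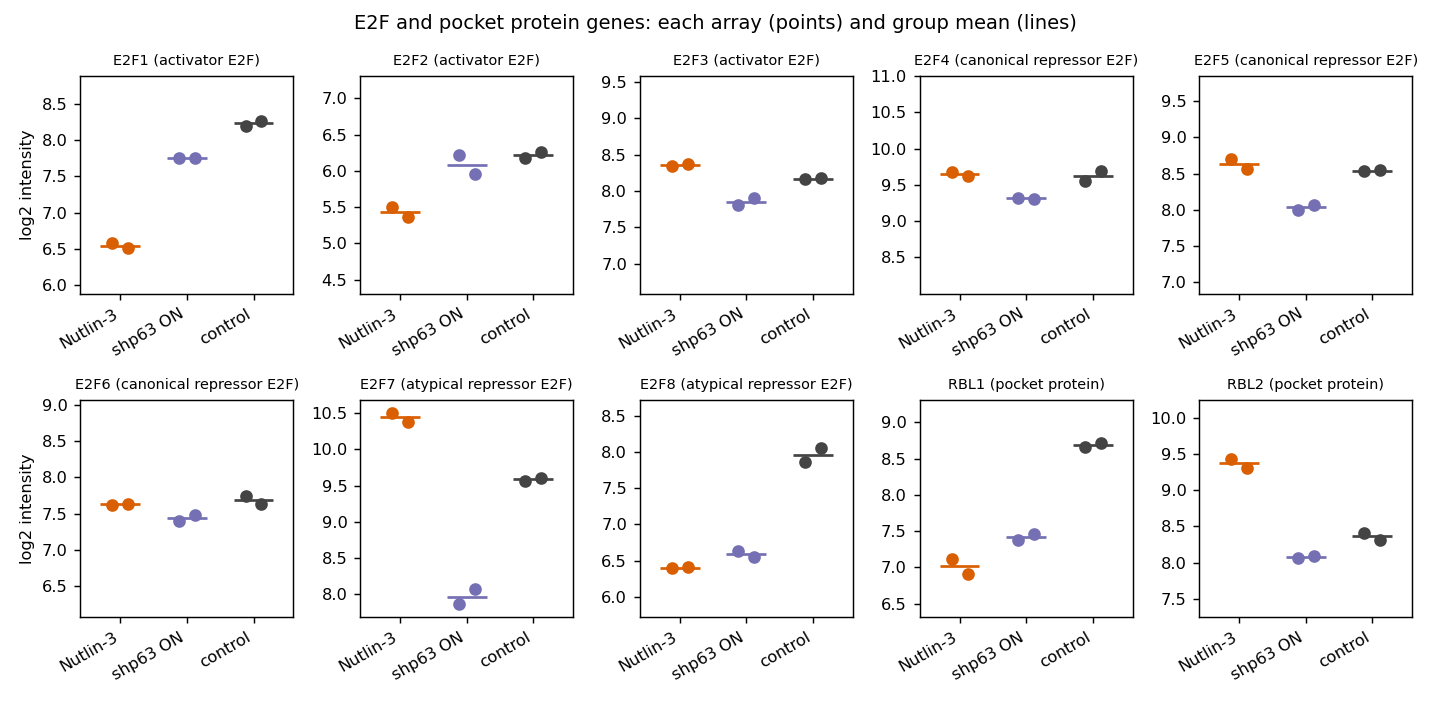
Log2 intensity of each E2F and pocket protein gene on each of the 6 arrays (points) with the group mean (lines); every panel spans 3 log2 units around its own gene. E2F1, E2F8 and RBL1 lie lower in Nutlin-3 and in shp63 ON cells than in control cells, whereas E2F7 and RBL2 lie highest in Nutlin-3 cells and lowest in shp63 ON cells.

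Among the activators, E2F1 fell most with Nutlin-3. It read 6.58 and 6.51 in Nutlin-3 cells, 7.76 and 7.76 in shp63 ON cells, and 8.20 and 8.26 in control cells. The 3 groups did not overlap, with Nutlin-3 lowest and shp63 ON between. E2F1 was 3.21-fold lower with Nutlin-3 than in control (log2 fold change −1.68, SE 0.06, limma adjusted p = 7.51e-06), the 32nd lowest of all genes in that comparison. It was 1.39-fold lower in shp63 ON than in control (−0.47, SE 0.06, limma adjusted p = 0.0015). The difference between the conditions passed as well: E2F1 was 2.32-fold higher in shp63 ON than with Nutlin-3 (1.21, SE 0.06, limma adjusted p = 1.51e-05).

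E2F2, with a mean of 5.91 over the arrays, was the member dropped by a filter on genes under 6. It read 5.50 and 5.36 with Nutlin-3, 6.22 and 5.95 in shp63 ON, and 6.17 and 6.25 in control. The Nutlin-3 arrays lay below the rest, and the shp63 ON and control arrays overlapped. The fall with Nutlin-3 was 1.72-fold (log2 fold change −0.78, SE 0.10, limma adjusted p = 0.00188), and E2F2 was higher in shp63 ON than with Nutlin-3 (0.65, SE 0.10, limma adjusted p = 0.00137). Against control, shp63 ON gave −0.13 with a 95% interval of −0.36 to 0.10.

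E2F3 did not share that pattern. It read 8.34 and 8.37 with Nutlin-3, 7.80 and 7.90 in shp63 ON, and 8.16 and 8.18 in control. The Nutlin-3 arrays lay above control, by a difference that did not pass (log2 fold change 0.18, 95% interval 0.03 to 0.34, limma adjusted p = 0.095). E2F3 was lower in shp63 ON than in control (−0.32, SE 0.07, limma adjusted p = 0.00898) and than with Nutlin-3 (−0.50, SE 0.07). The call against control was lost without control replicate 2 (limma adjusted p = 0.0587) and without shp63 ON replicate 1 (0.0534), in a range of 0.00437 to 0.0587 over 16 alternatives.

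The canonical repressors E2F4, E2F5 and E2F6 did not pass with Nutlin-3 and were each lower in shp63 ON than in control. E2F4 read 9.68 and 9.63 with Nutlin-3, 9.32 and 9.31 in shp63 ON, and 9.56 and 9.70 in control. Its Nutlin-3 and control arrays overlapped, with a difference of 0.03 (95% interval −0.14 to 0.19). E2F5 read 8.70 and 8.56 with Nutlin-3, 8.0 and 8.07 in shp63 ON, and 8.53 and 8.54 in control, and its Nutlin-3 difference of 0.09 (95% interval −0.07 to 0.26) did not pass. E2F6 read 7.62 and 7.64 with Nutlin-3, 7.40 and 7.48 in shp63 ON, and 7.74 and 7.64 in control, with a Nutlin-3 difference of −0.06 (95% interval −0.22 to 0.10). For all 3 genes both shp63 ON arrays lay below the other 4. E2F5 fell most of them in shp63 ON, 1.42-fold below control (log2 fold change −0.50, SE 0.07, limma adjusted p = 0.00185), and that call held in each of 16 alternatives.

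E2F4 (log2 fold change −0.31, SE 0.07, limma adjusted p = 0.0126) and E2F6 (−0.25, SE 0.07, limma adjusted p = 0.0244) fell less in shp63 ON. Over 16 alternatives the fold changes were −0.38 to −0.23 for E2F4 and −0.30 to −0.20 for E2F6, but the calls were not stable. Neither gene passed in the one-way analysis of variance, which kept all arrays (adjusted p = 0.0676 and 0.0741). E2F4 lost its call without control replicate 2 (limma adjusted p = 0.0871), shp63 ON replicate 1 (0.0529) or shp63 ON replicate 2 (0.0545), over a range of 0.00206 to 0.0871. E2F6 lost it without control replicate 1 (limma adjusted p = 0.137), control replicate 2 (0.0533), shp63 ON replicate 1 (0.118) or shp63 ON replicate 2 (0.0503), over a range of 0.0145 to 0.137. Compared with Nutlin-3, shp63 ON was lower for E2F4 (−0.34, SE 0.07), E2F5 (−0.60, SE 0.07) and E2F6 (−0.19, SE 0.07). The E2F6 call there (limma adjusted p = 0.0489) was lost in 11 of 16 alternatives, which are not all separate checks. Removing any 1 array lost it, with log2 fold changes of −0.23 to −0.15. Without a control array the fit repeats that of the 4 compared arrays alone.

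The atypical repressors E2F7 and E2F8 moved in opposite directions with Nutlin-3. E2F7 read 10.50 and 10.38 in Nutlin-3 cells, 7.87 and 8.07 in shp63 ON cells, and 9.57 and 9.60 in control cells. The 3 groups were fully apart, with Nutlin-3 above and shp63 ON below control. E2F7 rose 1.81-fold with Nutlin-3 (log2 fold change 0.86, SE 0.09, limma adjusted p = 0.000537) and was 3.06-fold lower in shp63 ON than in control (−1.61, SE 0.09, limma adjusted p = 2.32e-05). Between shp63 ON and Nutlin-3 it differed 5.55-fold (−2.47, SE 0.09, limma adjusted p = 4.94e-06), the 17th lowest difference of all genes.

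E2F8 read 6.40 and 6.41 with Nutlin-3, 6.63 and 6.55 in shp63 ON, and 7.85 and 8.05 in control. It was thus low under both conditions, 2.93-fold lower than control with Nutlin-3 (log2 fold change −1.55, SE 0.08, limma adjusted p = 2.25e-05) and 2.57-fold lower in shp63 ON (−1.36, SE 0.08, limma adjusted p = 3.6e-05). The difference between shp63 ON and Nutlin-3 did not pass (0.19, 95% interval 0.00 to 0.38, limma adjusted p = 0.0847).

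The pocket protein genes also parted with Nutlin-3. RBL1, the gene of p107, read 7.11 and 6.91 with Nutlin-3, 7.37 and 7.46 in shp63 ON, and 8.66 and 8.72 in control. Control lay above both conditions. RBL1 was 3.19-fold lower with Nutlin-3 (log2 fold change −1.67, SE 0.08, limma adjusted p = 2.08e-05), ranking 35th from the lowest of all genes, and 2.42-fold lower in shp63 ON (−1.27, SE 0.08, limma adjusted p = 5.75e-05). Between the conditions, shp63 ON was higher than Nutlin-3 by 0.40 (SE 0.08, limma adjusted p = 0.0053).

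RBL2, the gene of p130, read 9.43 and 9.31 with Nutlin-3, 8.06 and 8.09 in shp63 ON, and 8.41 and 8.31 in control. The Nutlin-3 arrays lay well above the other 4. RBL2 was 2.01-fold higher with Nutlin-3 than in control (log2 fold change 1.01, SE 0.07, limma adjusted p = 0.000102) and 1.22-fold lower in shp63 ON (−0.28, SE 0.07, limma adjusted p = 0.0194). The second call was lost without control replicate 1 (limma adjusted p = 0.112), control replicate 2 (0.051), shp63 ON replicate 1 (0.0863) or shp63 ON replicate 2 (0.0612), over a range of 0.00763 to 0.112. Set against each other, shp63 ON was 2.45-fold lower than Nutlin-3 (−1.29, SE 0.07, limma adjusted p = 2e-05).

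**Figure D2:**
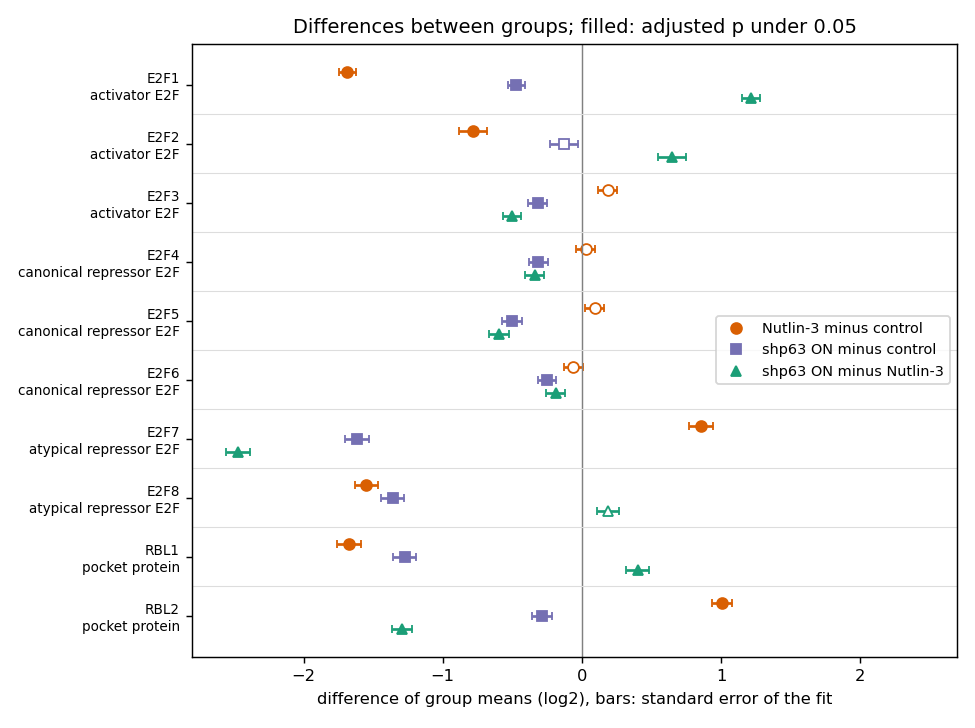
Difference of group means on the log2 scale for each member, with limma's standard error as bars; filled symbols passed an adjusted p under 0.05. With Nutlin-3 against control E2F7 and RBL2 lie right of 0 and E2F1, E2F2, E2F8 and RBL1 left of it, while every shp63 ON value against control lies left of 0, the open E2F2 symbol included.

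By class, activators and repressors did not fully separate by direction in any comparison. With Nutlin-3, 2 of 3 activators fell, while of the 5 repressors E2F4 to E2F8 1 rose, 1 fell and 3 did not pass. Of all genes, 9.64% were called higher and 8.89% lower in that comparison. The class medians were −0.78 and 0.03. With shp63 ON, 2 of 3 activators and 5 of 5 repressors were lower than control, against 16.5% of all genes called lower. The class medians there were −0.32 and −0.50. The calls of E2F3, E2F4 and E2F6 in that comparison were lost in 2, 4 and 5 of 16 alternatives. Against Nutlin-3, shp63 ON had 2 activators higher and E2F3 lower, and 4 of 5 repressors lower with E2F8 not passing. Of all genes, 27.5% were called higher and 24% lower. The E2F6 call was lost in 11 of 16 alternatives. The class medians were 0.65 and −0.34, of opposite sign. These medians rest on few genes and were not tested.

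Some members followed other genes closely over the 6 arrays. Likeness was the root mean square difference between values centred on each gene's own mean, over 18394 other genes, for the 8 members whose group means spanned at least 0.5. E2F8 lay nearest to CDC25A, a phosphatase that activates cyclin-dependent kinases (0.06), and PLK4, a centriole duplication kinase (0.07). RBL1 lay nearest to PLK4 (0.07) and the replicative helicase subunit MCM3 (0.10). RBL2 lay nearest to CCNG1, the gene of cyclin G1 (0.05), and the death receptor TNFRSF10B (0.06). E2F1 lay nearest to SLFN11 (0.08) and the cytokinesis gene ANLN (0.15), and E2F7 to the activin antagonist follistatin, FST (0.17), and the antimicrobial ribonuclease RNASE7 (0.17). CARHSP1 and SHMT1 were nearest to E2F2 (0.07 and 0.08), MTCL2 and SPAST to E2F3 (0.02 each), and AATF and RPUSD4 to E2F5 (0.03 each). These values describe likeness and carry no test.

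**Figure D3:**
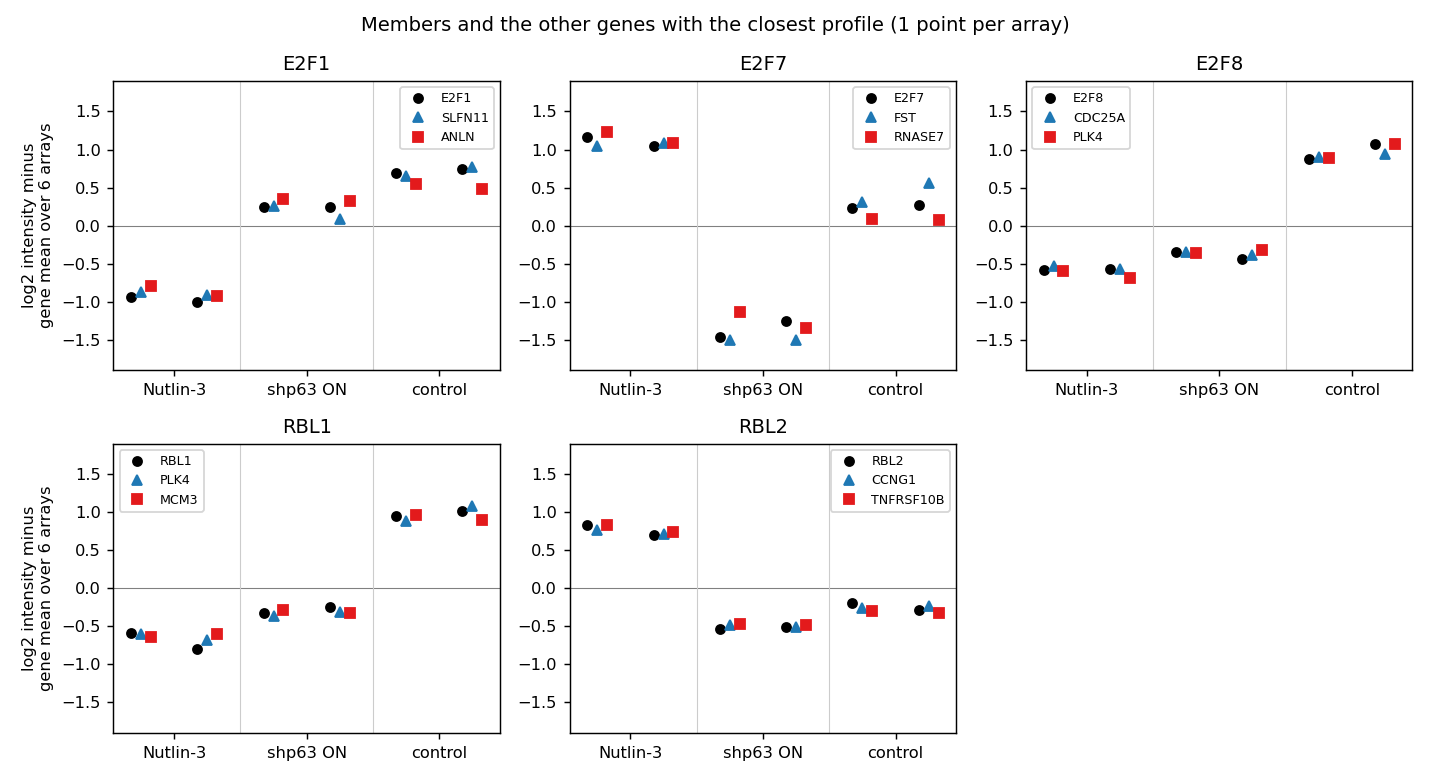
Log2 intensity minus the gene's mean over the 6 arrays, 1 point per array, for the 5 members whose group means spanned at least 1 log2 unit and the pair of other genes nearest to each. RBL2, CCNG1 and TNFRSF10B sit above 0 only in Nutlin-3 cells, and RBL1, E2F8 and PLK4 above 0 only in control cells.

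The counts in the lists below stand against 9.64% of all genes called higher and 8.89% lower with Nutlin-3, and 19.7% higher and 16.5% lower in shp63 ON. Of the DP genes, whose products pair with E2F proteins, TFDP1 was lower with Nutlin-3 (log2 fold change −0.29, SE 0.06, limma adjusted p = 0.0157) and in shp63 ON (−0.68, SE 0.06). TFDP2 was lower in shp63 ON (−0.53, SE 0.09, limma adjusted p = 0.00378, against 0.0676 in the one-way analysis of variance) and did not pass with Nutlin-3 (−0.06, SE 0.09), and TFDP3 passed in neither (0.05 in each). The TFDP1 call with Nutlin-3 was lost without any 1 of the 4 arrays compared (limma adjusted p = 0.0552 to 0.0976). In the MuvB list of 9 genes, 6 fell and 1 rose with Nutlin-3, and 7 fell and 1 rose in shp63 ON. MYBL2, the gene of B-MYB, which MuvB binds in cycling cells, fell most of the list (−1.74, SE 0.08, with Nutlin-3 and −2.01, SE 0.08, in shp63 ON). The other MuvB-bound factor of cycling cells, FOXM1, fell too (−0.95, SE 0.07, and −1.84, SE 0.07). FOXM1 was also lower in shp63 ON than with Nutlin-3 (−0.90, SE 0.07). The core subunit LIN9 fell in both (−0.76 and −0.97, SE 0.09 each), whereas LIN37, named after its values were seen as the member that rose, was higher in both (0.42 and 0.52). In the one-way analysis of variance 4 genes of the list passed with Nutlin-3, all lower, and LIN9 lost its call (adjusted p = 0.0587), as did LIN37.

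Of 13 measured polycomb partners of E2F6 (of 14 listed), 1 was lower with Nutlin-3, against 8.89% of all genes, and 7 in shp63 ON, against 16.5%, and the others did not pass. PCGF6, the ring finger subunit of the E2F6 complex, was lowest in shp63 ON (log2 fold change −0.95, SE 0.08), followed by WDR5 (−0.60, SE 0.06). The count in shp63 ON was 4 without control replicate 1, 3 without control replicate 2, 3 without shp63 ON replicate 1, 4 without shp63 ON replicate 2 and 4 in the one-way analysis of variance. The gene lower with Nutlin-3 was CBX3, the gene of the heterochromatin protein HP1 gamma (−0.40, SE 0.08), whose call was lost without control replicate 1 (limma adjusted p = 0.102), control replicate 2 (0.0638) or Nutlin-3 replicate 2 (0.0696) and in the one-way analysis of variance (0.122). With Nutlin-3, 3 partners were lower under quantile normalization, cyclic loess, the filter on dim genes or a variance trend, PCGF6 and WDR5 among them (limma adjusted p = 0.0393 and 0.0267 under quantile normalization), and 2 with the mean of a gene's probe sets.

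Upstream of the pocket proteins, 12 of 13 listed cyclins, kinases and inhibitors were measured. With Nutlin-3, 2 rose and 6 fell, and in shp63 ON 4 rose and 6 fell. CDKN1A, the cyclin-dependent kinase inhibitor p21, was higher with Nutlin-3 (log2 fold change 1.59, SE 0.06) but did not pass in shp63 ON (0.13, SE 0.06). The inhibitors CDKN1B (0.55, SE 0.09), CDKN1C (0.31, SE 0.06) and CDKN2D (0.37, SE 0.06) were higher in shp63 ON than in control. With Nutlin-3 CDKN1C was lower (−0.35, SE 0.06), and CDKN1B and CDKN2D did not pass (−0.22 each). Cyclin E2, CCNE2, was lower in both (−3.94 and −2.33, SE 0.10 each), as was CDK2, its partner kinase (−1.07 and −0.80, SE 0.06 each). D-type cyclin genes parted: in shp63 ON CCND2 was lower (−0.95, SE 0.06) and CCND3 higher (0.66, SE 0.06), and CDK4, a kinase they activate, was lower (−1.03, SE 0.07). With Nutlin-3 the count of 8 became 5 without control replicate 1, 5 without control replicate 2 and 5 in the one-way analysis of variance. Of 8 regulators of E2F protein turnover and activity, 6 fell with Nutlin-3, and 6 fell and 1 rose in shp63 ON. Cyclin A2, CCNA2, whose kinase phosphorylates E2F1 in S phase, fell in both (−1.11 and −2.05, SE 0.08 each), and so did the checkpoint kinase CHEK1 (−1.68 and −1.10, SE 0.08 each).

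The targets that E2F proteins and DREAM are known to control fell under both conditions, to different extents. Of 32 measured G1/S targets (of 35 listed), 30 were lower with Nutlin-3 and 32 were lower in shp63 ON, with median log2 fold changes of −1.25 and −1.26. Set against each other, shp63 ON had 15 higher and 7 lower than Nutlin-3, against 27.5% of all genes called higher and 24% lower. The pair that did not pass with Nutlin-3 was the replication clamp PCNA (0.15, SE 0.10) and thymidylate synthase, TYMS (−0.01, SE 0.09), and these were the furthest below Nutlin-3 in shp63 ON (−1.66 and −2.24). Of 20 G2/M genes with CHR elements, 17 were lower with Nutlin-3 and 19 in shp63 ON, with medians of −0.61 and −1.40. Here 13 were lower and 1 higher in shp63 ON than with Nutlin-3, against 24% of all genes called lower and 27.5% higher. The mitotic kinase CDK1 (−1.84, SE 0.14) and topoisomerase TOP2A (−1.74, SE 0.09) had the largest such differences. With Nutlin-3, 6 of the 20 passed as lower in the one-way analysis of variance, where CDK1, TOP2A, CCNB2 and PLK1 lost their calls. Fewer also passed without control replicate 2. CCNB2 lost its call without any 1 of the 4 arrays compared (log2 fold change −0.63 to −0.57), and CDK1 and TOP2A without some of them. These lists overlap genes already known to fall in these data, so their direction is not independent support.

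Of 8 measured apoptotic and related targets of E2F1 (of 10 listed), 2 rose with Nutlin-3 and 6 did not pass, against 18.5% of all genes called in either direction. The 2 were APAF1, the apoptosome scaffold (log2 fold change 0.76, SE 0.07), and caspase 8, CASP8 (0.55, SE 0.06). In shp63 ON, 2 of 8 passed, against 36.2% of all genes: BBC3, the gene of the BH3 protein PUMA, was higher (0.57, SE 0.10) and BCL2L11, the gene of BIM, lower (−0.27, SE 0.06). The BBC3 call was lost in the one-way analysis of variance (adjusted p = 0.0859). The BCL2L11 call was lost without control replicate 1 (limma adjusted p = 0.0632), control replicate 2 (0.0874) or shp63 ON replicate 1 (0.0849). APAF1 and CASP8 were lower in shp63 ON than with Nutlin-3 (−0.79 and −0.68) and BBC3 higher (0.72).

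**Figure D4:**
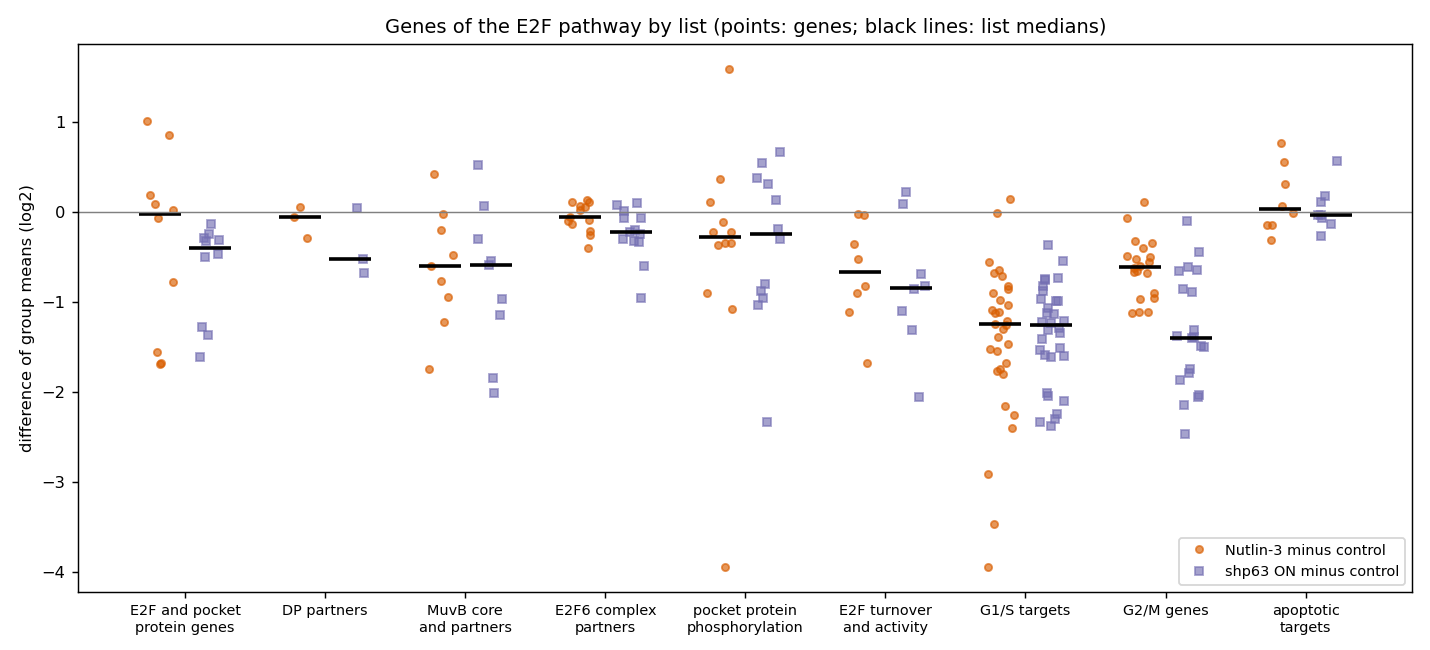
Difference from control on the log2 scale for each gene (points) of the E2F and pocket protein set and of 8 related lists, with list medians as black lines. The G1/S medians lie close together at −1.25 with Nutlin-3 and −1.26 in shp63 ON, and the G2/M medians apart at −0.61 and −1.40.

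In every shp63 ON difference, knockdown, doxycycline and treatment length cannot be told apart. The shRNA and the antibiotic came together, exposure lasted 48 h against 12 h for Nutlin-3, and none of these arrays held a control shRNA. Control cells were labelled normal growth, and their labels name no vehicle. Drug and solvent therefore cannot be told apart in the Nutlin-3 differences.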

How the data were processed

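The data are 6 Affymetrix HuGene 1.0 ST arrays, 2 per group, grouped by their titles. The deposited values are log2 intensities per probe set (2.94 to 14.88), whose nearly equal array medians show normalization by the authors. Per the submitters' processing notes Partek was used, and the design text names a one-way analysis of variance; the version of Partek and the background, normalization and summary methods were not given in the sources used here. No read depth exists for arrays, so precision is set by their number, and with 2 against 2 the smallest two-sided p of an exact permutation test is 0.333.

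Of 32321 probe sets, 19158 name 1 gene in the platform annotation and gave 18404 genes; where a gene had several (637 genes, no member), the one with the highest mean was used. No filter on dim genes was applied. limma 3.58.1 in R 4.3.3 (lmFit, eBayes, 1 mean per group, 3 residual degrees of freedom before moderation) gave the 3 contrasts, with Benjamini-Hochberg adjustment over all genes and calls at an adjusted p under 0.05. SE and 95% intervals come from that fit, with 7.52 total degrees of freedom. The procedure was tested on simulated data. Named genes are all members, up to 4 called genes per list and comparison with the largest change, MKI67, and the 2 genes nearest to each member. SOX2, PTPRC, LIN37, TFDP3, CDKN1B, CDKN1C and CDKN2D lie outside this rule. These genes and CD14, CD68 and TYROBP, which meet the rule, were named after their values were seen. Members and lists were chosen with earlier results of these data known. Alternatives changed the probe set summary, normalization, filter, variance model, arrays in the fit and replicate block.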

Additional observations from a re-analysis of the deposited data

How the results depend on the processing

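Over 16 alternatives, the 10 members gave 477 values (E2F2, with a mean under 6, dropped out under the filter on dim genes); 447 stayed on the same side of the threshold, 30 called ones lost the call, and no called value changed direction. The alternatives are not all separate checks, so such tallies count some outcomes more than once. Leaving out 1 array of the group not compared repeats the fit of the 4 compared arrays alone. The mean of a gene's probe sets cannot change a member's values, since no member had several. Of the values not called, E2F2 in shp63 ON against control (−0.13) ranged from −0.27 to 0.0047 and E2F4 with Nutlin-3 (0.03) from −0.04 to 0.10. All the losses for E2F3 to E2F6 and RBL2 were in comparisons of shp63 ON, and E2F2 (Nutlin-3 against control, limma adjusted p = 0.00188, against 0.0796 in the one-way analysis of variance) and RBL1 (shp63 ON against Nutlin-3, 0.0053 against 0.0605) lost a call in the analysis of variance alone. The number of members called was 5 to 6 with Nutlin-3 and 7 to 9 in shp63 ON against Nutlin-3. In shp63 ON against control it was 6 in the analysis of variance and 8 to 9 under the other alternatives that kept all arrays of the comparison. Leaving out any 1 array of that comparison lowered the count, and no called member changed direction. With quantile normalization RBL2 lost its call there (limma adjusted p = 0.0618, against 0.0194).

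The replicate numbers are not said to pair arrays, and deviations of same-numbered arrays correlated at −0.06, −0.02 and 0.11 across genes. With the replicate block, 6, 9 and 8 members were called. Over all genes the analysis of variance called 1236 with Nutlin-3 (3410 in limma), 3003 in shp63 ON (6670) and 6089 between the conditions (9481). Leaving out 1 array of a comparison called 1405 to 2410 with Nutlin-3 and 3454 to 4732 in shp63 ON. With arrays centred on their medians, the Nutlin-3 calls split into 2175 higher and 1236 lower, against 1774 and 1636. Arrays carry no detection call here, so how far E2F2 stood above background is unknown.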
